A study of Chlorocebus aethiops with 12 samples.

Results

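PCSK1N and 4 proprotein convertases, PCSK1, PCSK2, FURIN and PCSK7, were followed across 12 one-colour microarrays of COS-1 cells. These 5 accessions of the 32379 on the array were taken by their RefSeq identifier, and every probe was kept apart. They are NM_013271 for PCSK1N, NM_000439 for PCSK1, NM_002594 for PCSK2, NM_002569 for FURIN and NM_004716 for PCSK7. Together they had 9 of the 41000 probes. PCSK1N was selected on its measured values: in an earlier analysis of the same arrays its responses to dexamethasone with and without MDFIC differed widely at probe A_24_P14731. Its values are therefore a description and carry no test. The convertases were chosen as the family of the enzyme that PCSK1N inhibits, and they were tested.

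Proprotein convertases are serine proteases of the secretory pathway that cut precursor proteins behind pairs of basic residues and so release mature hormones, growth factors, receptors and enzymes. PCSK1 and PCSK2 work in the dense-core granules of endocrine and neuronal cells, where they process prohormones such as proinsulin and pro-opiomelanocortin. FURIN and PCSK7 are made by most cell types and work in the trans-Golgi network and at the cell surface. PCSK1N encodes proSAAS, a granin-like protein of neuroendocrine cells that binds and inhibits the PCSK1 enzyme.

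The study asks whether MDFIC, a MyoD family inhibitor domain protein, changes transcription by the glucocorticoid receptor when a phosphorylated serine of that receptor is replaced by alanine. COS-1 cells come from African green monkey kidney and grow like fibroblasts. The 4 groups were cells transfected with S211A plus MDFIC and given 100 nM dexamethasone (Dex), the same cells given vehicle, cells transfected with S211A alone and given Dex, and the same cells given vehicle, each for 6 h and with 3 biological replicates. S211A is that mutant receptor. All 4 groups carried it and were kept in charcoal-stripped serum, so that no value given here sets the mutant against another receptor. Each array reads RNA from a mix of cells that took up plasmid and cells that did not, and fewer responding cells and less RNA per cell cannot be told apart. The probes are human and the RNA is monkey.

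Signals are given on the log2 scale relative to the 75th percentile of the same array, so that 0 is the level of that percentile and a step of 1 is a doubling. Levels of different probes are not compared, since each probe binds with its own efficiency. The 12 arrays lay on 3 slides of 4 arrays. On slide 1 were S211A Dex replicate 1 and all S211A vehicle replicates. The remaining S211A Dex replicates shared slide 2 with S211A+MDFIC vehicle replicates 1 and 2, and slide 3 carried S211A+MDFIC Dex and the last S211A+MDFIC vehicle replicate. Between 67.8% and 71.7% of probes were well above background per array of slide 1, against 76.2% to 79.8% for slide 2 and 76.5% to 80.7% for slide 3. Replicates of a group correlated across the tested probes with r of 0.986 to 0.996. The number of arrays limits the precision. Of the 9 probes, 7 passed the filter, which asked that some group be well above background in each of its 3 arrays: both of PCSK1N, 1 of 2 for PCSK1, the only one of FURIN and all 3 of PCSK7. The other PCSK1 probe and the only PCSK2 probe were not well above background on any of the 12 arrays.

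PCSK1N was measured well above background on all 12 arrays by both of its probes. At probe A_24_P14731 Dex went with a higher signal in cells that had received MDFIC and with a lower signal in cells that had not. In S211A+MDFIC cells the signal was 1.33, 0.89 and 0.94 under Dex, against -0.02, -0.10 and 0.08 under vehicle. In S211A cells it was 0.26, -0.0010 and -0.05 under Dex, against 1.02, 0.58 and 0.87 under vehicle. Neither pair of groups overlapped, and the pairs ran in opposite directions. Of all tested probes, 18.3% were higher under Dex without overlap in S211A+MDFIC and 11.3% were lower in S211A.

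Set out as group means, PCSK1N at this probe averaged 1.06 ± 0.24 in S211A+MDFIC Dex, -0.01 ± 0.09 in S211A+MDFIC vehicle, 0.07 ± 0.17 in S211A Dex and 0.82 ± 0.22 in S211A vehicle (SD, n = 3 each). The difference of Dex minus vehicle was 1.07 (SE 0.15) with MDFIC, which is 2.10-fold higher, and -0.75 (SE 0.15) without it, which is 1.68-fold lower. S211A+MDFIC cells lay 1.98-fold above S211A cells under Dex (log2 0.98, SE 0.15) and 1.79-fold below them under vehicle (log2 -0.84, SE 0.15). These pairs did not overlap either, and 6.94% of tested probes were higher without overlap under Dex and 15.3% lower under vehicle. No slide held both groups of either MDFIC comparison, so these 2 differences lie wholly between slides. With slide as a fixed block they were 0.95 (SE 0.27) under Dex and -0.59 (SE 0.27) under vehicle. These values join differences inside slides through the other groups, some with a single array on one side. They are therefore not direct MDFIC differences freed of slide. The 2 groups with the higher levels, S211A+MDFIC Dex and S211A vehicle, overlapped each other, as did S211A+MDFIC vehicle and S211A Dex. Between these 2 pairs lay a gap that no array crossed, with 0.58 as the lowest of the upper 6 arrays and 0.26 as the highest of the lower 6.

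**Figure D1:**
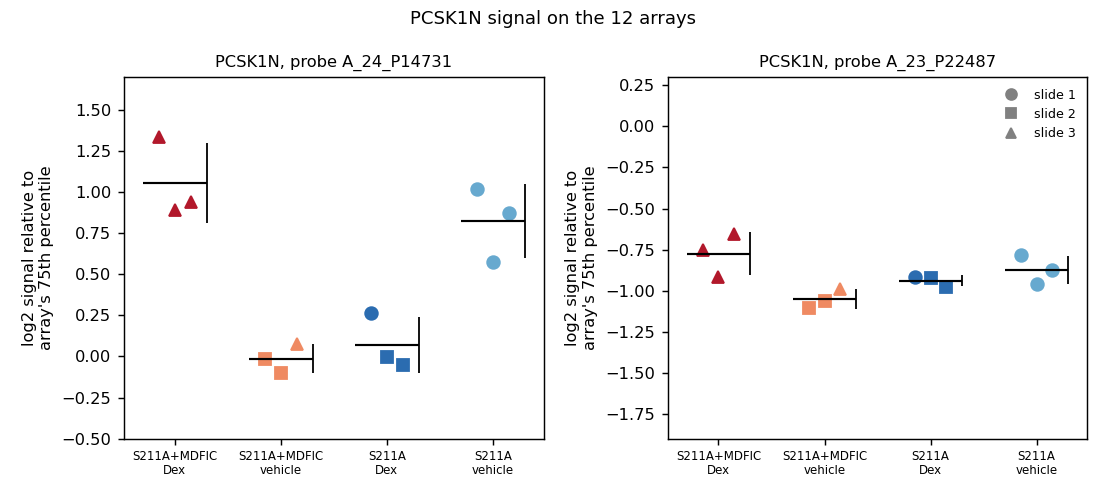
PCSK1N signal (log2 relative to the array's 75th percentile) at its 2 probes, with a point for each of the 12 arrays, a horizontal line for the group mean and a vertical line for ± 1 SD (n = 3); the marker gives the slide and both panels span the same range. At A_24_P14731 the S211A+MDFIC Dex arrays lie at 0.89 to 1.33 and the S211A vehicle arrays at 0.58 to 1.02, above the other 6 arrays, whereas A_23_P22487 stays between -1.10 and -0.66 on all 12.

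The difference between the Dex responses of PCSK1N, with MDFIC minus without, was 1.82 (SE 0.21) at A_24_P14731. By size it was larger than that of 99.7% of the 31232 tested probes. The pattern itself was uncommon: 0.871% of the tested probes were lower under Dex in S211A and higher under Dex in S211A+MDFIC with neither pair of groups overlapping. In the other order of comparison, 0.861% were higher with MDFIC under Dex and lower with it under vehicle without overlap. Because PCSK1N was chosen for this pattern, nothing is read from its place in these shares.

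The second PCSK1N probe, A_23_P22487, gave the same order of group means with much smaller differences. Its signal was -0.75, -0.91 and -0.66 in S211A+MDFIC Dex and -1.10, -1.06 and -0.99 in S211A+MDFIC vehicle, which did not overlap. In S211A cells it was -0.92, -0.92 and -0.98 under Dex, against -0.79, -0.96 and -0.88 under vehicle, and these groups overlapped. Dex minus vehicle was 0.28 (SE 0.07) with MDFIC and -0.07 (SE 0.07) without. The difference between the Dex responses was 0.34 (SE 0.10), against 1.82 at A_24_P14731. S211A+MDFIC minus S211A was 0.16 (SE 0.07) under Dex and -0.18 (SE 0.07) under vehicle. With slide as a fixed block these MDFIC differences were 0.08 (SE 0.15) and -0.18 (SE 0.15), the former smaller than its SE. PCSK1N was chosen for its pattern, so nothing is read from signs that stayed the same over the alternatives to the processing. Across the 12 arrays the 2 probes correlated with r = 0.81, as a description of arrays that share group, slide and labelling. A change of 2-fold is thus reported by 1 PCSK1N probe only, and where in the transcript the 2 probes lie was not analysed here.

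Slide and group were partly bound together, and the PCSK1N values within slides were as follows. Within slide 1 the single S211A Dex array lay at 0.26 and the 3 S211A vehicle arrays at a mean of 0.82, a difference of -0.56 at A_24_P14731. Within slide 3 the 3 S211A+MDFIC Dex arrays had a mean of 1.06 and the single S211A+MDFIC vehicle array lay at 0.08, a difference of 0.98. Slide 2 held 2 S211A+MDFIC vehicle arrays at a mean of -0.06 and 2 S211A Dex arrays at a mean of -0.03. Both directions of the Dex difference were therefore present inside a slide, each with a single array on one side. Neither MDFIC comparison could be read inside a slide, since no slide held both of its groups. With slide as a fixed block the difference between the Dex responses was 1.54 (SE 0.29) at this probe and 0.26 (SE 0.16) at A_23_P22487. That fit takes the Dex differences from within slides 1 and 3, so it rests on the same single arrays and adds nothing to the values above.

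Spot-level measures were also read. None of the 9 probes had a spot marked as an outlier or as saturated. The scanner software's own error was 10.0% of the signal at A_24_P14731 on all 12 arrays. Around that spot, 83 tested probes within 5 rows and 5 columns had a median difference between the Dex responses of 0.02, with a range of -0.36 to 0.72. Around A_23_P22487 the 89 such probes had a median of 0.01 and a range of -1.43 to 2.00, wider than that probe's own 0.34. Over the alternatives to the processing and the removal of each array in turn, the difference at A_24_P14731 stayed between 1.54 and 1.94, and that at A_23_P22487 between 0.26 and 0.41.

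**Figure D2:**
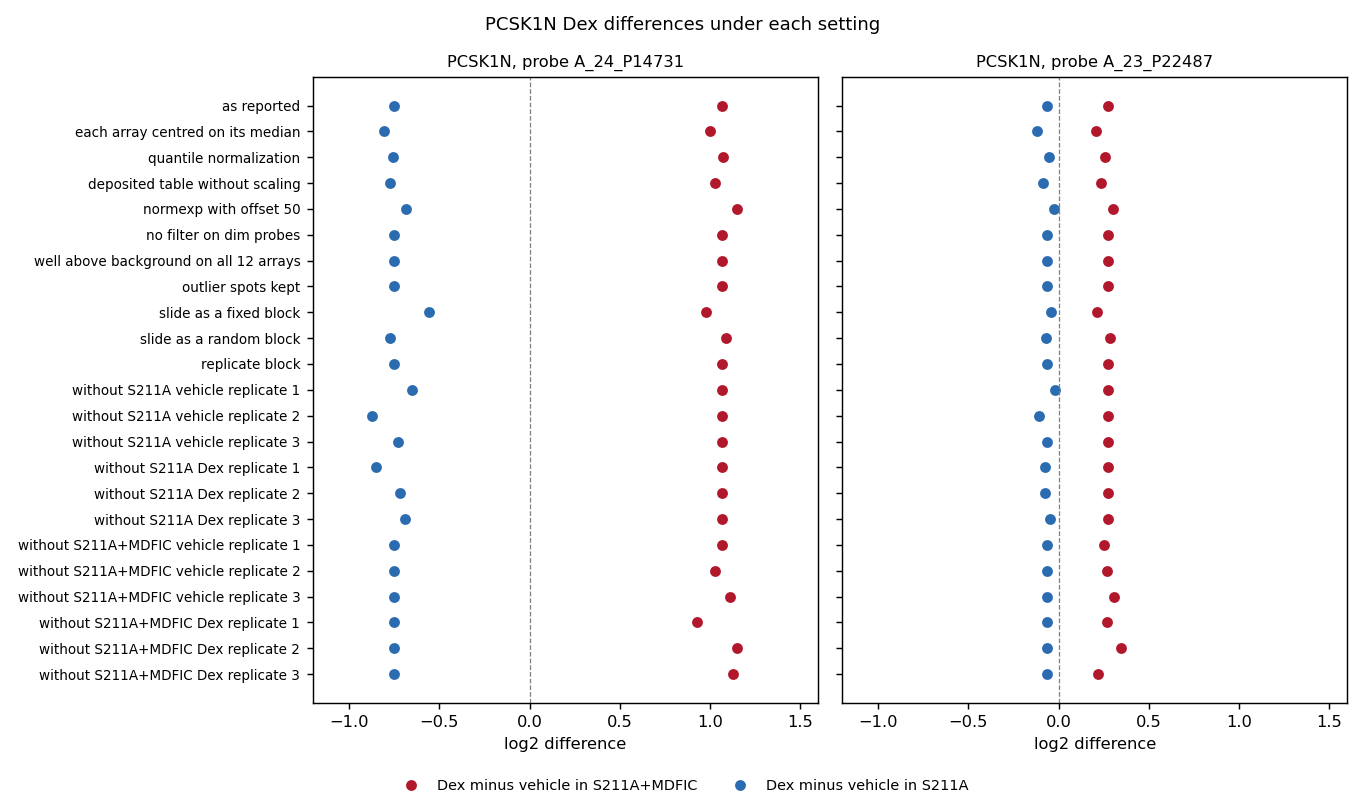
Log2 difference of Dex minus vehicle (x axis) in S211A+MDFIC cells (red) and in S211A cells (blue) at the 2 PCSK1N probes, with a row for the reported setting and one for each alternative. At A_24_P14731 the red points lie between 0.93 and 1.15 and the blue ones between -0.87 and -0.56, and at A_23_P22487 they lie between 0.21 and 0.35 and between -0.12 and -0.02.

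Other accessions followed PCSK1N closely across the arrays. Among 20944 accessions with a probe well above background on all 12 arrays, 123 correlated with A_24_P14731 at r above 0.9, and 46 did so with A_23_P22487. Closest to A_24_P14731 was NM_207370, with r = 0.99 over the 12 arrays and 0.97 after each slide's mean was removed. Its log2 difference of Dex minus vehicle was 0.67 in S211A+MDFIC and -0.42 in S211A. The 5 closest accessions had differences between the Dex responses of 0.81 to 1.47, all smaller than that of PCSK1N. PCSK1N was chosen for this difference and the accessions for their likeness to it, so nothing is read from this order. Closest to A_23_P22487 was NM_024676 (r = 0.94), with a difference of 0.36. The files used here do not pair these accessions with gene names. By this measure 274 accessions were more like A_24_P14731 than the second PCSK1N probe was. In the other direction, 438 accessions were more like A_23_P22487 than A_24_P14731 was.

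**Figure D3:**
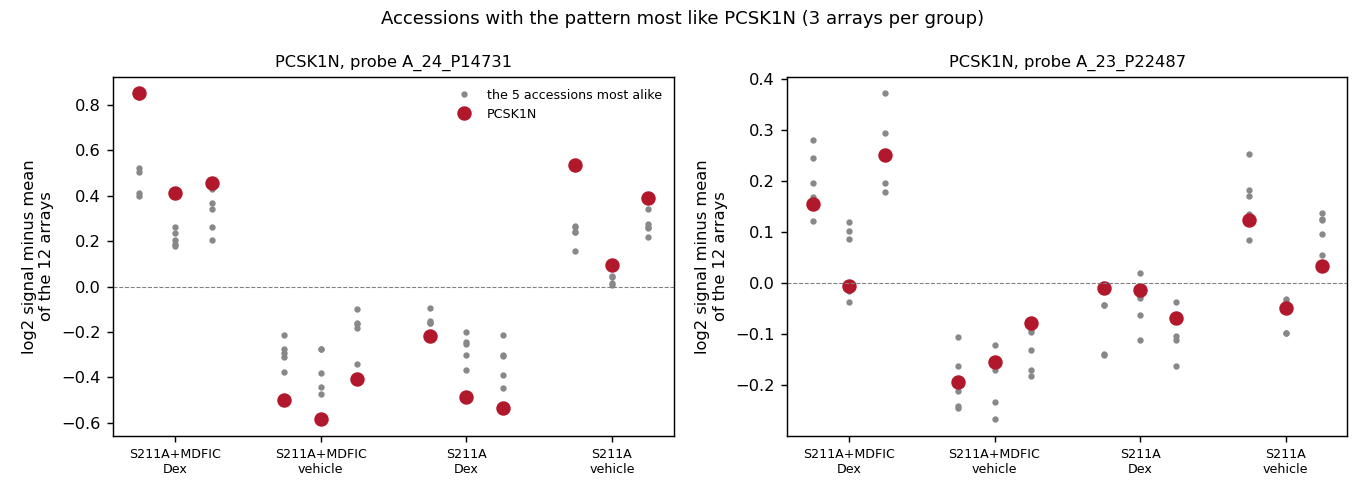
Log2 signal minus the mean of the 12 arrays for each PCSK1N probe (red) and the 5 accessions with the highest Pearson r to it (grey), with the 3 arrays of each group side by side. At A_24_P14731 the 5 accessions share the direction of PCSK1N in each group with a smaller range, and their differences between the Dex responses are 0.81 to 1.47, against 1.82 for PCSK1N.

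The convertases gave no called change. In limma 0 of their 5 tested probes passed an adjusted p of 0.05 in any of the 5 comparisons. The shares of all tested probes called were 6.18% for Dex in S211A, 9.55% for Dex in S211A+MDFIC, 0.752% for MDFIC under vehicle, 0.288% for MDFIC under Dex. For the contrast of the Dex responses the share was 0.186%. At an unadjusted p under 0.05 the convertase count was 0 of 5 for Dex in S211A, against 19.4% of all tested probes, and 1 of 5 for Dex in S211A+MDFIC, against 26.3%. For MDFIC it was 0 of 5 under vehicle, against 16.1%, and 1 of 5 under Dex, against 12.9%. The contrast of the Dex responses had 0 of 5, against 9.35%. Over the 5 convertase probes the median log2 difference was 0.08 for Dex in S211A and 0.22 for Dex in S211A+MDFIC, against 0.02 and 0.04 over all tested probes. For MDFIC it was 0.07 under vehicle and 0.18 under Dex, against -0.01 and 0.01 over all tested probes. The contrast of the Dex responses had a median of 0.16, against 0.01. These medians mix 3 probes of PCSK7 with 1 each of PCSK1 and FURIN. The PCSK1 probe, with MDFIC differences of 0.43 under vehicle and 0.44 under Dex, passed the filter only through the 2 S211A+MDFIC groups. Nothing is therefore read from the medians for MDFIC. With only 5 convertase probes, a count of 0 called is close to the background share in each of the 5 comparisons.

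PCSK1, the enzyme that proSAAS inhibits, was at the edge of detection. Its probe A_23_P213508 was well above background on all 3 S211A+MDFIC Dex arrays, all 3 S211A+MDFIC vehicle arrays, 2 of 3 S211A Dex arrays and 0 of 3 S211A vehicle arrays. By slide, these were 0 of 4 arrays on slide 1 and all 8 arrays on slides 2 and 3, and slide 1 was also the slide with the lowest share of detected probes. The S211A Dex array that fell short was the one on slide 1. The part of the slide in this detection was not tested. The signal was -4.54, -5.34 and -5.15 in S211A+MDFIC Dex, against -5.61, -5.69 and -5.83 in S211A+MDFIC vehicle. It was -5.86, -5.68 and -4.80 in S211A Dex, against -5.93, -6.70 and -5.80 in S211A vehicle.

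The S211A+MDFIC groups of PCSK1 did not overlap, and 18.3% of the tested probes were likewise higher without overlap in that comparison. There the Dex difference was log2 0.70 (95% interval -0.02 to 1.42, limma adjusted p = 0.200), or 1.63-fold. In S211A cells the Dex and vehicle groups overlapped, and the vehicle group and 1 of the 3 Dex arrays were not well above background. With the vehicle group at its bound and the Dex arrays as measured, the ratio of the means was 1.23-fold, which is not a lower limit. The difference was not called (fitted log2 0.70, 95% interval -0.02 to 1.42, limma adjusted p = 0.274). It came to 0.37 without S211A Dex replicate 3. With slide as a fixed block it was 0.28, which is the difference within slide 1, where the probe was not well above background on any array. Under vehicle the S211A+MDFIC and S211A groups overlapped, and the sign of their difference depended on the processing. The fitted log2 difference was 0.43, against -0.14 with normexp background correction and -0.13 with slide as a fixed block, so that no direction is given. Normexp, which shrinks dim probes, put the Dex differences of PCSK1 at 0.22 in S211A+MDFIC and 0.12 in S211A. This probe passed the filter only through the 2 S211A+MDFIC groups. The dim probe A_24_P174793 gave no level for PCSK1 on any array.

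PCSK2, the other convertase of dense-core granules, was read by a single probe, A_23_P79968, whose deposited signal ran from 2.96 to 5.33 units on the 12 arrays. The scanner software put the error of these readings at 99.5% to 99.8% of the signal. No level is therefore given for PCSK2 in any group.

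FURIN, which processes precursors of growth factors and their receptors in the trans-Golgi network, was dim but measured on all 12 arrays. Its signal at A_23_P3368 was -3.61, -3.86 and -3.71 in S211A+MDFIC Dex, against -3.70, -3.81 and -3.85 in S211A+MDFIC vehicle. In S211A cells it was -3.75, -3.65 and -3.95 under Dex, against -3.73, -3.93 and -3.92 under vehicle. All 4 groups overlapped one another, and the whole span over the 12 arrays was 0.34. The Dex difference was 0.06 with MDFIC (95% interval -0.15 to 0.28, limma adjusted p = 0.718) and 0.08 without (-0.14 to 0.29, limma adjusted p = 0.723). These intervals leave room for a change of up to 1.21-fold with MDFIC and 1.23-fold without it in the upward direction. The difference between the 2 responses of FURIN was -0.01 (95% interval -0.32 to 0.29).

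PCSK7, a membrane-bound convertase found in most tissues, was measured on all 12 arrays by 3 probes. At A_32_P66974 the signal was 0.44, 0.22 and 0.39 in S211A+MDFIC Dex, against 0.36, 0.13 and 0.21 in S211A+MDFIC vehicle. In S211A cells it was -0.16, 0.19 and 0.19 under Dex, against 0.16, 0.05 and 0.26 under vehicle. The 2 Dex groups did not overlap, and 6.94% of tested probes were likewise higher without overlap; S211A+MDFIC lay 1.21-fold above S211A (log2 0.27, 95% interval 0.03 to 0.52, limma adjusted p = 0.351). These 2 Dex groups shared no slide. With slide as a fixed block the log2 difference was 0.19 (SE 0.17), reached only through the other groups. The lowest of the 12 values was the only S211A Dex array on slide 1.

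The other PCSK7 probes gave small positive differences under Dex with MDFIC, none of which was called. A_23_P203095 was -2.35, -2.61 and -2.13 in S211A+MDFIC Dex, against -2.70, -2.63 and -2.64 in S211A+MDFIC vehicle. These groups did not overlap, though only the step between -2.61 and -2.63 parted them, and 18.3% of tested probes were likewise higher without overlap. Its Dex difference there was 0.29 (95% interval 0.02 to 0.56, limma adjusted p = 0.168), or 1.22-fold. Left out of the fit, S211A+MDFIC Dex replicate 2, the lowest of the 3, moved this value to 0.41 and below the threshold (limma adjusted p = 0.0346). In that fit 5719 of 32024 tested probes were called. At A_23_P64214 the same difference was 0.22 (limma adjusted p = 0.307), and at A_32_P66974 it was 0.11 (limma adjusted p = 0.546). In S211A cells the fitted Dex differences of the 3 PCSK7 probes lay between -0.08 and 0.09. With slide as a fixed block, and equally within slide 1, that of A_32_P66974 was -0.32 (SE 0.13 with the block, limma adjusted p = 0.326).

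**Figure D4:**
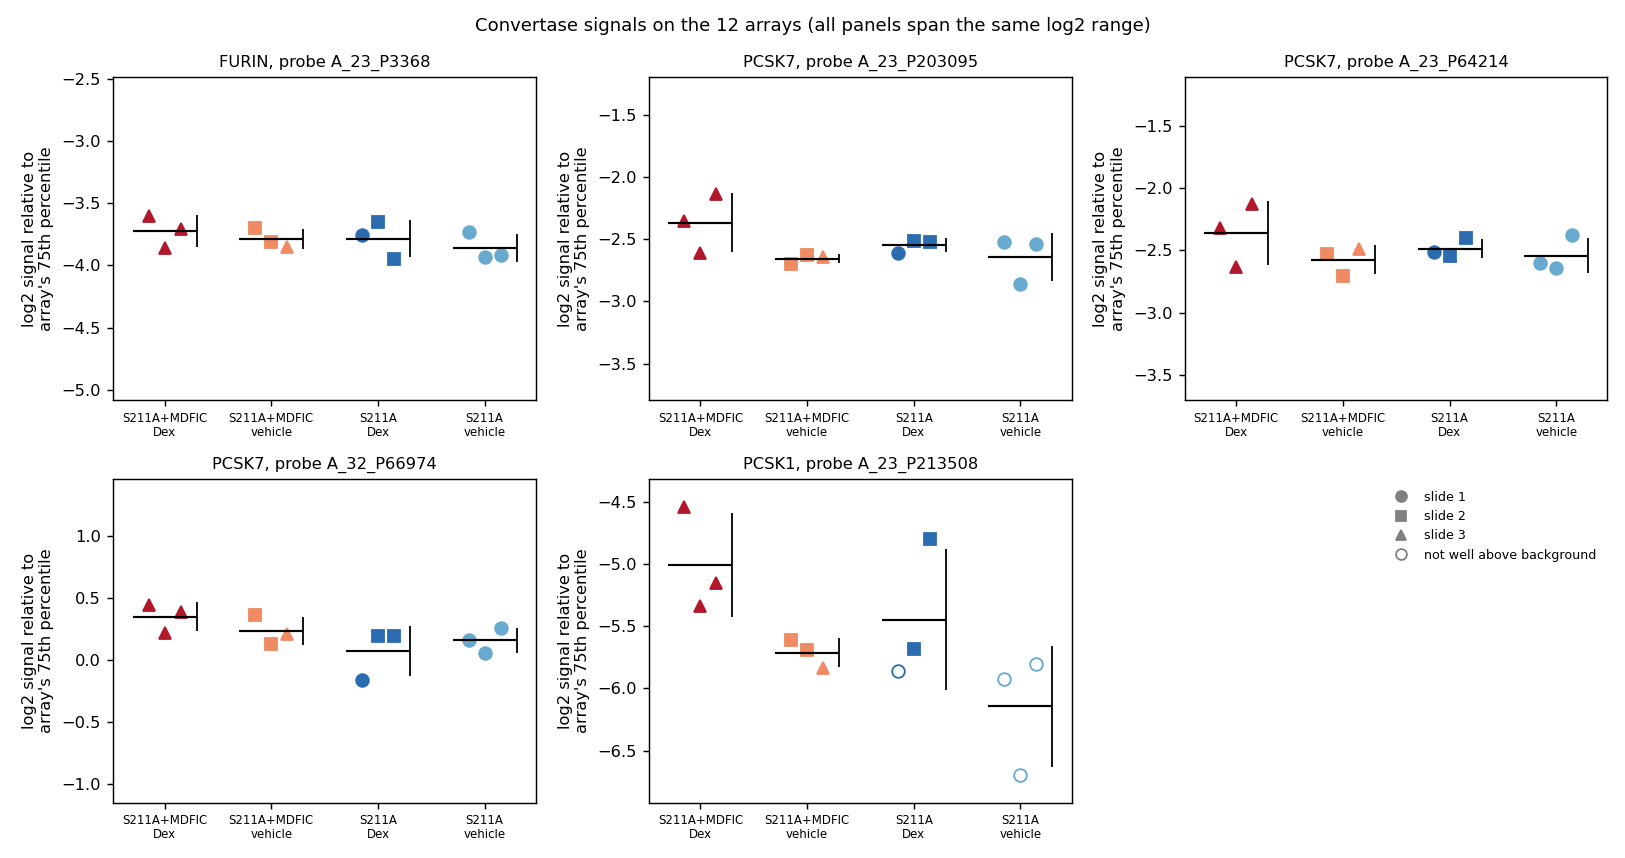
Log2 signal relative to the array's 75th percentile for the 5 convertase probes that passed the filter, with a point per array, the group mean as a horizontal line and ± 1 SD as a vertical line (n = 3); markers give the slide and open markers are not well above background. FURIN spans 0.34 over all 12 arrays, and the open markers of PCSK1 are the 4 arrays of slide 1.

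No convertase had a called difference between its Dex responses. These differences between the Dex responses were 0.20, 0.16 and 0.20 at the PCSK7 probes A_23_P203095, A_23_P64214 and A_32_P66974, -0.01 for FURIN and 0.0047 for PCSK1, with limma adjusted p of 0.691 to 0.998. The 95% intervals for PCSK7 and FURIN had upper ends of at most 0.58. With slide as a fixed block A_32_P66974 ran in opposite directions under Dex, at 0.14 in S211A+MDFIC and -0.32 in S211A. Its difference between the Dex responses was then 0.45 (SE 0.18, limma adjusted p = 0.676). PCSK1N at A_24_P14731 had 1.54 (SE 0.29) in the same fit. It was chosen for this difference, so nothing is read from its size beside the convertases. For PCSK1 the interval ran from -1.01 to 1.02, so that this dim probe bounds the difference loosely. Across the 12 arrays A_24_P14731 correlated with r of 0.37 to 0.45 with the PCSK7 probes and 0.21 with FURIN, whereas the median over 20944 accessions was 0.11. At A_23_P22487 these values were 0.32 to 0.79 for PCSK7 and 0.37 for FURIN, with a median of 0.20.

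**Figure D5:**
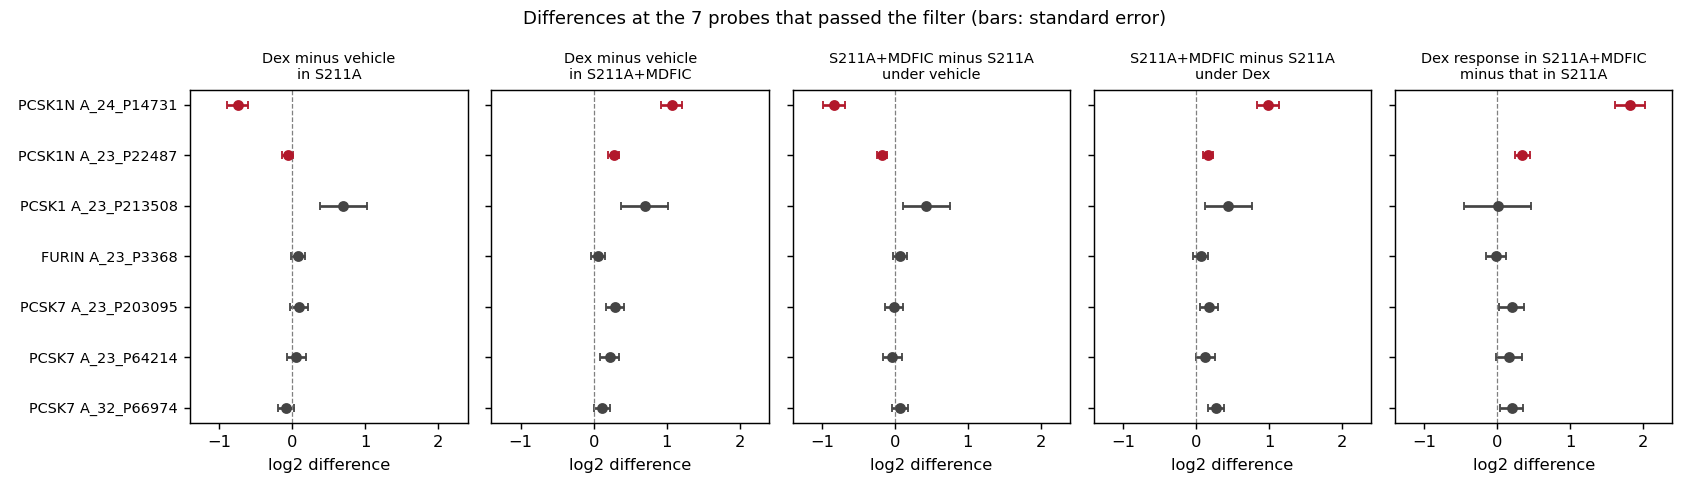
Log2 differences (points) with standard errors (bars) at the 7 probes that passed the filter, in the 5 comparisons from left to right; PCSK1N is red and the convertases are dark grey. In the last panel A_24_P14731 stands at 1.82 and A_23_P22487 at 0.34, while the convertases lie between -0.01 and 0.20. PCSK1N was chosen for its value in that panel, so nothing is read from its distance to the convertases.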

How the data were processed

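RNA of 12 COS-1 samples was hybridised one array per sample to a human Agilent one-colour design. The deposited intensity values are the processed signal of Feature Extraction 12.0.0.7, background-subtracted and detrended within each array and not scaled between arrays, per the file headers. Spot flags, scanner errors and other columns were used as deposited. Each of the 45015 spots was read, 1639 control spots were left out and 945 outlier spots were set to missing. Here log2 intensity minus the array's 75th percentile was fitted in limma 3.58.1 (R 4.3.3), on all 12 arrays in 4 groups without a block, with two-sided tests. Tested probes were well above background in each of the 3 arrays of some group, with 2 or more values in every group. Benjamini-Hochberg adjustment ran over 31232 tested probes in each of 5 comparisons, at a threshold of 0.05. The fit was tested on simulated data. A group at its bound was set at the higher of its own signal and the lowest signal well above background on each array.

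All probes of the 5 accessions are named, and per PCSK1N probe the accession with the highest Pearson r. The members and lists were chosen with earlier results of these data known. Same-numbered replicates did not deviate together (r of -0.248 to 0.238 over 18 pairs), so numbers were not used to pair. The files pair no symbols with accessions beyond the members, so lists of substrates, other convertases, cell type markers and the transfected genes were not analysed here.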

Additional observations from a re-analysis of the deposited data

Results flagged for a closer look

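PCSK1N at probe A_24_P14731 was picked out because every S211A+MDFIC array was higher under Dex than under vehicle and every S211A array was lower. The difference between these Dex responses, with MDFIC minus without, was 1.82 on the log2 scale. It was not tested, since PCSK1N had been chosen for it. The second PCSK1N probe, A_23_P22487, gave 0.34, and its S211A groups overlapped. Slide is partly bound to group, and its part in the result was not tested beyond the fits with slide as a block. With a fixed block the difference at A_24_P14731 was 1.54, a value that rests on single arrays within slides. A random block gave 1.86, but the fitted correlation between arrays of a slide was -0.07. That fit therefore took out no shared slide effect. With groups of 3, no sample could be checked for standing apart from its group.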

How the results depend on the processing

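PCSK1N, chosen for its pattern, kept the signs of all 5 differences at both probes in every alternative. The convertase counts stayed at 0 with 2 exceptions. With no filter on dim probes PCSK2 was called for MDFIC under vehicle (1 probe, limma adjusted p = 0.0417), although it was not well above background on any array. In that comparison 1829 of the 40994 probes then tested were called. Without S211A+MDFIC Dex replicate 2, PCSK7 A_23_P203095 was called for Dex in S211A+MDFIC (limma adjusted p = 0.0346), as were 5719 of the 32024 probes tested in that fit. Leaving out each array in turn gave 0 convertase probes in the other 4 comparisons and 0 to 1 there. Some uncalled convertase differences changed sign, among them those of PCSK1 for MDFIC, which were 0.43 under vehicle and 0.44 under Dex as reported and -0.14 and -0.05 with normexp.

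The counts over all probes, which form the background, moved more, and the cause was not tested. For Dex in S211A the count of 1929 became 619 in the deposited table without scaling, 1125 with normexp, 794 with slide as a fixed block and 249 within slide 1, and 1072 to 2234 without single arrays. For Dex in S211A+MDFIC 2983 became 651 in the table, 686 with slide fixed and 89 within slide 3, and 1402 to 5719 without single arrays. For MDFIC under vehicle 235 became 78 in the table, 110 with normexp, 1829 with no filter, 96 with slide fixed, 632 with slide random and 113 with the replicate block, and 68 to 403 without single arrays. For MDFIC under Dex 90 became 27 in the table, 48 with no filter, 13 with slide fixed and 204 with slide random, and 33 to 672 without single arrays. For the difference between the Dex responses 58 became 0 in the table (1126 at an unadjusted p under 0.05, limma), 107 with normexp, 1 with no filter, 122 with the filter on all 12 arrays, 152 with slide random and 36 with the replicate block. Without single arrays this last count was 0 to 134, and it was 0 when S211A+MDFIC Dex replicate 1, S211A Dex replicate 1, S211A Dex replicate 3 or the first S211A+MDFIC vehicle array was left out, with 2166 to 3039 at an unadjusted p under 0.05 (limma). The removal of any 1 of the 12 arrays moved at least 1 of these counts by over 1.5 times. Among these removals the highest counts for Dex in S211A+MDFIC (5719) and for MDFIC under vehicle (403) and under Dex (672) came without S211A+MDFIC Dex replicate 2. The replicate block called 0 convertase probes in each comparison. The unscaled table put the median of all tested probes at 0.12 in both MDFIC comparisons, against -0.01 under vehicle and 0.01 under Dex as reported. Signal over background limits PCSK1, PCSK2 and the A_24_P174793 probe.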
